A study of Mus musculus with 3 samples.

Results

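The 10 genes described here, Igf2, H19, Dlk1, Meg3, Cdkn1c, Kcnq1ot1, Igf2r, Grb10, Mest and Peg3, are imprinted genes of fetal growth, chosen by symbol from the mouse annotation. The choice used no measured value, but was made with earlier results of these data known. They are 10 of 31970 annotated genes, made up of 7 of 21827 protein-coding genes and 3 of 10143 long non-coding genes (H19, Meg3 and Kcnq1ot1). Open chromatin was mapped by DNase-seq, a method that reads the DNA ends left by DNase I where chromatin is accessible, in embryonic liver at 13.5 days in 1 group of 3 libraries, numbered as biological replicates 1, 2 and 3, with no treatment and no control tissue. The mice were of the strain C57BL/6N,129 and wild type apart from a yeast artificial chromosome named A20, present as a single copy in every sample. The labels name the same donor for all 3 libraries and a biosample for each, so the spread between libraries may be in part technical.

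Imprinted genes are expressed mainly from the maternal or the paternal copy, and the copy in use is set by DNA methylation laid down in the germ line at imprinting control regions. In the fetal liver these genes act on growth in opposite directions: paternally expressed growth factors and signalling proteins promote it, and maternally expressed receptors, cell cycle inhibitors and non-coding RNAs restrain it. Unmethylated control regions can bind the insulator protein CTCF, and methylated ones are protected by the zinc-finger protein ZFP57. The parental copies cannot be told apart in the files, so each value covers both together.

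For each library the peak list with more entries held 34369, 122281 and 60862 peaks in replicates 1, 2 and 3, and the footprint list held 89836, 342756 and 156638 footprints, which are short stretches within open chromatin that are shielded from cutting. Read totals are unknown here, so no counting interval could be given. A promoter reached 1000 bp to each side of every transcription start site (TSS) of a gene, and its signal was the highest deposited peak signal that overlapped it, in the units of each library. The scale of that signal is not stated, so it was used within a library only. The percentile of a gene among all genes of its class in the same library is given beside it, with genes without a peak at 0. A region is a stretch covered by peaks that overlapped or touched across libraries, and 25817 of 130485 regions held a peak of every library. All positions are in mm10.

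The stretches that recur among these genes are shown first. Letters known for CTCF were overlapped by footprints of every library near 5 of the genes, namely upstream of Dlk1, in the first intron of Meg3, upstream of H19, at 2 places upstream of Cdkn1c and within Grb10. They were overlapped by footprints of replicates 1 and 2 upstream of the second Mest promoter, and by footprints of replicate 2 alone at 2 places of the H19 imprinting control region (ICR). The letters searched were GGNGGCAG on both strands, and, chosen after the sequences at the footprints had been seen, GGGGGCGC on both strands. Each line below gives 25 bases on either side of a match, 5′ to 3′ on the strand of the match, from the RefSeq copy of GRCm38.p6, the assembly called mm10, with the matched letters in capitals.
Dlk1 upstream, chr12:109437888-109437945, plus strand: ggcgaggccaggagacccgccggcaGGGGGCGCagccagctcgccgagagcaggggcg
Meg3 intron, chr12:109543013-109543070, minus strand: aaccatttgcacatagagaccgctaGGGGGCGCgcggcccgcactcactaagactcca
H19 upstream, chr7:142610734-142610791, plus strand: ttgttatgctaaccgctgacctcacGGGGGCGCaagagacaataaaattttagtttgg
H19 ICR 1, chr7:142580284-142580341, minus strand: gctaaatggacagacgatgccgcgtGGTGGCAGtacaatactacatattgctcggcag
H19 ICR 2, chr7:142580739-142580796, minus strand: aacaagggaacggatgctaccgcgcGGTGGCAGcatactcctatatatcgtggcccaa
Cdkn1c upstream 1, chr7:143464053-143464110, minus strand: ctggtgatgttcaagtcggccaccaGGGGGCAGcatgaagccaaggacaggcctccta
Cdkn1c upstream 2, chr7:143466471-143466528, minus strand: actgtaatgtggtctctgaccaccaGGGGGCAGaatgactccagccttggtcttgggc
Grb10 intron, chr11:11973589-11973646, plus strand: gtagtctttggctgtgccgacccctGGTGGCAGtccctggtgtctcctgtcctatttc
Mest second promoter, chr6:30737100-30737157, minus strand: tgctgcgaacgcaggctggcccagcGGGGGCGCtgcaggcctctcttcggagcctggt
These are matches of letters and not measured binding. Matches in regions found in every library were printed if footprints of 2 or more libraries overlapped them. Those in the H19 ICR were printed if any footprint overlapped them. In the Mrpl23 promoter, at the edge of the H19 window, a GGGGGCGC match lies in or beside an untranslated region and is not shown. A GGNGGCAG match there lay in a footprint of replicate 2 alone. Matches of GGNGGCAG at the Grb10, Igf2r, Cdkn1c and Peg3 promoters lay in no footprint of any library. A match of GGNGGCAG in the Airn promoter within Igf2r, at chr17:12740564-12740571, was overlapped by footprints of replicates 2 and 3. It is not shown because no peak of replicate 1 lay there. The H19 ICR, which had no peak of replicate 1 either, was the only exception made.

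At the Dlk1 stretch the footprint over the letters was 27, 31 and 28 bp wide in replicates 1, 2 and 3. At the Meg3 stretch it was 27, 28 and 22 bp wide. At the stretch upstream of H19 it was 31, 23 and 20 bp wide. At these 3 places the footprints of the 3 libraries began within 3 bp of each other on the 5′ side of the letters. The other CTCF stretches found in every library had footprints over the letters of 23, 27 and 18 bp (the nearer Cdkn1c stretch), 22, 41 and 22 bp (the farther Cdkn1c stretch) and 17, 25 and 13 bp (Grb10).

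**Figure D1:**
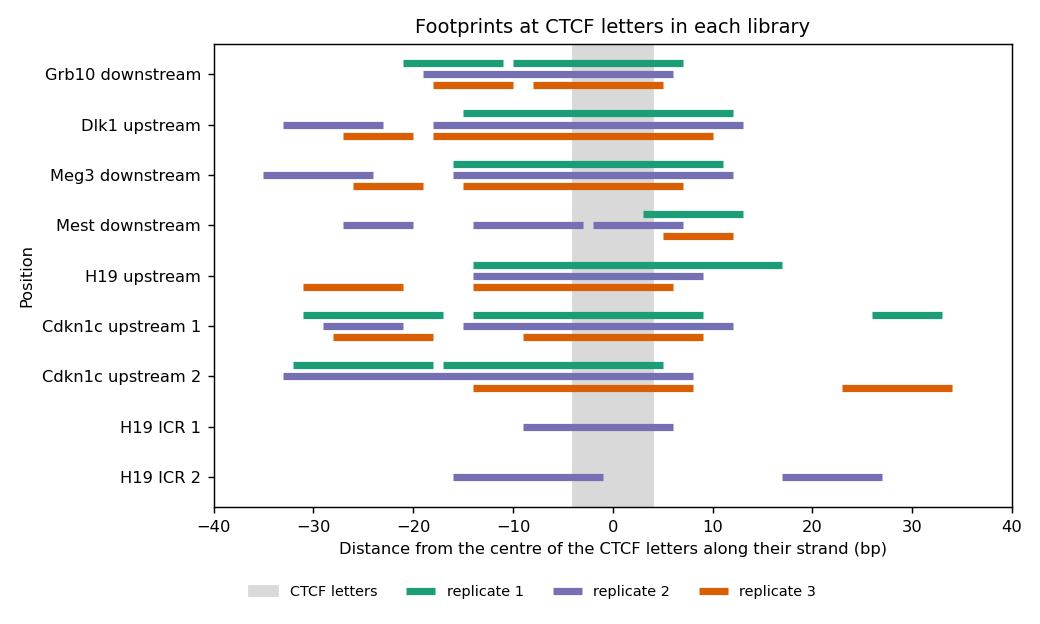
Footprints of each library (coloured bars) around the 9 printed stretches with CTCF letters, by distance in bp from the centre of the letters (grey band) along their strand. Stretches were picked for footprints over their letters, of 2 or more libraries or, in the H19 ICR, of any library. The overlap drawn is therefore part of that choice, and matches without footprints are not drawn. At 6 stretches all 3 libraries had a footprint over the letters, at the Mest stretch replicates 1 and 2 had one, and at both stretches of the H19 ICR replicate 2 alone had one.

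Over all 25 regions that were found in every library near these genes, GGNGGCAG occurred in the central 200 bp of 5, which is 20% of them, against 14.8% of all 25817 such regions. GGGGGCGC occurred in 4, or 16%, against 6.19% of all such regions. Because GGGGGCGC was chosen after the sequences at these footprints had been seen, its higher shares here are in part built in by that choice. Of the 5 matches of GGGGGCGC anywhere in the 25 regions, 4 lay in a footprint of every library, against 1168 of 2336 matches over all regions. Of the 8 matches of GGNGGCAG, 3 did so, against 1402 of 6270. The letters of ZFP57 (TGCCGC) occurred in the central 200 bp of 12% of the 25 regions, against 13.3% of all, and anywhere in 9 of the 25 regions (36%), against 19.7% of all. None of their 16 matches over the whole regions lay in a footprint of every library, against 802 of 6474 matches. The counts are small and describe these regions only.

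Promoter peaks were found for 6, 10 and 8 of the 10 genes in replicates 1, 2 and 3. Cdkn1c, Kcnq1ot1, Igf2r, Grb10, Mest and Peg3 had a promoter peak in every library, and each of the other genes (Igf2, H19, Dlk1 and Meg3) had none in replicate 1. Of the 7 protein-coding members 5, 7 and 6 carried such a peak, against 54%, 67.3% and 56.4% of all protein-coding genes in replicates 1, 2 and 3. In every library it was 5 of 7, against 51.4% of all protein-coding genes. Of the 3 long non-coding members 1, 3 and 2 carried such a peak, against 18.6%, 31.1% and 22.8% of all long non-coding genes, and 1 of 3 had one in every library, against 17.1%. With equal numbers of the strongest peaks in each library (34369), 6, 6 and 5 of the 10 genes had a promoter peak, against 54%, 52.5% and 49.3% of protein-coding and 18.6%, 18.2% and 17% of long non-coding genes, so the higher counts of replicates 2 and 3 were not seen with lists of equal length. Grb10 then had a promoter peak in replicates 1 and 2 and Mest in replicate 1, and with the shorter peak list of each library both had one in replicate 2 alone. Cdkn1c, Kcnq1ot1, Igf2r and Peg3 had one in every library in both cases.

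**Figure D2:**
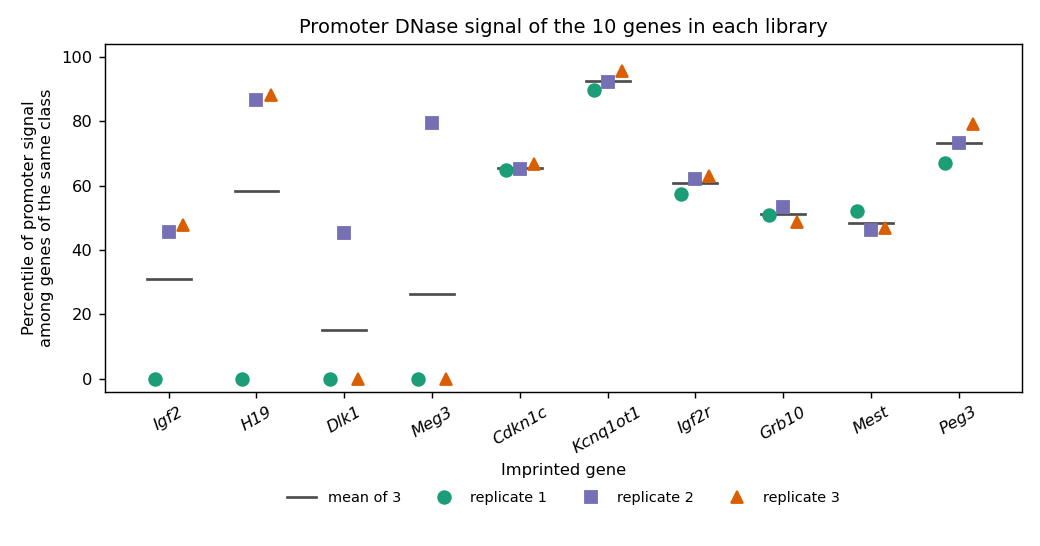
Percentile of promoter signal of each of the 10 genes among genes of its class (protein-coding or long non-coding) in each library, with the mean of the 3 libraries as a line and genes without a promoter peak at 0. Kcnq1ot1 stood highest in every library, at 89.8, 92.1 and 95.5, and Igf2, H19, Dlk1 and Meg3 stood at 0 in replicate 1.

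The Igf2-H19 locus pairs the growth factor gene Igf2, expressed from the paternal copy, with H19, a maternally expressed non-coding RNA. Both are known to share enhancers that lie beyond H19, and the ICR between them to decide which gene the enhancers reach. With 50 kb on either side the locus ran over 191.288 kb (chr7:142525529-142716816) and held 5, 26 and 15 peaks in replicates 1, 2 and 3. Of its 26 regions 3 were found in every library.

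Igf2 (chr7:142650766-142666816, minus strand) had no promoter peak in replicate 1 and promoter signals of 0.643 and 0.450 in replicates 2 and 3. Those values placed it at percentiles 0, 45.6 and 47.8 of protein-coding genes, a mean of 31.1 ± 27.0 (SD, n = 3). Both peaks lay at its downstream promoters: the most upstream of its 5 annotated TSSs had no peak within 1000 bp in any library. Replicate 2 had further weak peaks, of signals 0.590 to 0.629, near the TSS that lies within 1000 bp of the antisense gene Igf2os, and Igf2os cannot be separated from Igf2 there.

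H19 (chr7:142575529-142578143, minus strand) had no promoter peak in replicate 1 and promoter signals of 1.95 and 1.66 in replicates 2 and 3. Its percentiles among long non-coding genes were 0, 86.7 and 88.1, a mean of 58.2 ± 50.4 (SD, n = 3). The spread came from replicate 1 alone. Replicate 1 listed 37 bp of its 2001 bp promoter window at a false discovery rate under 0.05, although no peak was called there, against 432 and 328 bp in replicates 2 and 3. The gene Gm27786 and the microRNA gene Mir675, which is processed from the H19 transcript, start within 1000 bp of the H19 TSS and share its window. The part of the H19 promoter region that lies upstream of the TSS is printed here because its peak is the one that replicate 1 lacked, with bases in footprints of both replicates 2 and 3 in capitals.
H19 promoter, chr7:142578144-142578380, minus strand: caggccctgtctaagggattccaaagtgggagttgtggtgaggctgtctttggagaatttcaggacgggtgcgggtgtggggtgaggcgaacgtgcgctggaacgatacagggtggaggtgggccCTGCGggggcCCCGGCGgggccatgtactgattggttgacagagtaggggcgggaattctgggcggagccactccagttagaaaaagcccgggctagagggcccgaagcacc

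The endodermal enhancers, known from mouse to drive Igf2 and H19 in liver and gut and searched here 7 to 12 kb downstream of the H19 TSS, held 0, 3 and 3 peaks in replicates 1, 2 and 3. The strongest, at chr7:142569021-142569420, had signals of 1.60 and 2.23 in replicates 2 and 3. It lay 8922 bp downstream of the H19 TSS. The other regions there, at chr7:142570687-142570880 and chr7:142566581-142566820, had signals of 0.774 and 0.656 in replicate 2 and of 0.879 and 0.962 in replicate 3. Replicate 1 had no peak, no footprint and no position under the false discovery rate limit in this window, so enhancers and promoter were missing from the same library. The central part of the strongest enhancer region is shown, with bases in footprints of both replicates 2 and 3 in capitals.
H19 enhancer, chr7:142569101-142569340, minus strand: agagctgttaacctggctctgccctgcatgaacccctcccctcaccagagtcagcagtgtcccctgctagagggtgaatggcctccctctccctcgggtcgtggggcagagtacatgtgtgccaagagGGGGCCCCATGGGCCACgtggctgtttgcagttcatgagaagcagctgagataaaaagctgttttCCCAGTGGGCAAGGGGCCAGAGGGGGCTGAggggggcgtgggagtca

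The H19 ICR, taken as 2 to 4 kb upstream of the TSS, had peaks in replicate 2 alone. Their signals were 0.771 at chr7:142580246-142580420 and 0.966 at chr7:142580641-142580880. Each peak held 1 of the 5 matches of GGNGGCAG in the 2001 bp, and a footprint of replicate 2 overlapped each of those matches. The other 3 matches lay in no footprint. All 5 matches ran on the minus strand, which is the strand of H19.

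The regions found in every library lay in an intron of the non-coding gene Gm33148, between the genes, and at the Mrpl23 promoter, at the far edge of the H19 window. At chr7:142611181-142611400, 33148 bp upstream of H19, the signals were 1.80, 3.78 and 3.61 in replicates 1, 2 and 3. Next to it, at chr7:142610681-142610900, they were 1.33, 1.57 and 0.928, and this region held the H19 upstream stretch printed above. This pair of regions was the only place between Igf2 and H19 with a peak in replicate 1. The stronger one matched neither set of CTCF letters, and its shared footprint is shown on the minus strand with the bases covered in every library in capitals.
Igf2-H19 interval, chr7:142611211-142611370, minus strand: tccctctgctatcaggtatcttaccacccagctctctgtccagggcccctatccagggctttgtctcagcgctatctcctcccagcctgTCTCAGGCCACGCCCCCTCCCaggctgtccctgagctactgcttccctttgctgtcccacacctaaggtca
The Mrpl23 promoter, of a mitochondrial ribosomal protein gene, had signals of 2.59, 4.15 and 1.74 at chr7:142533061-142533860.

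**Figure D3:**
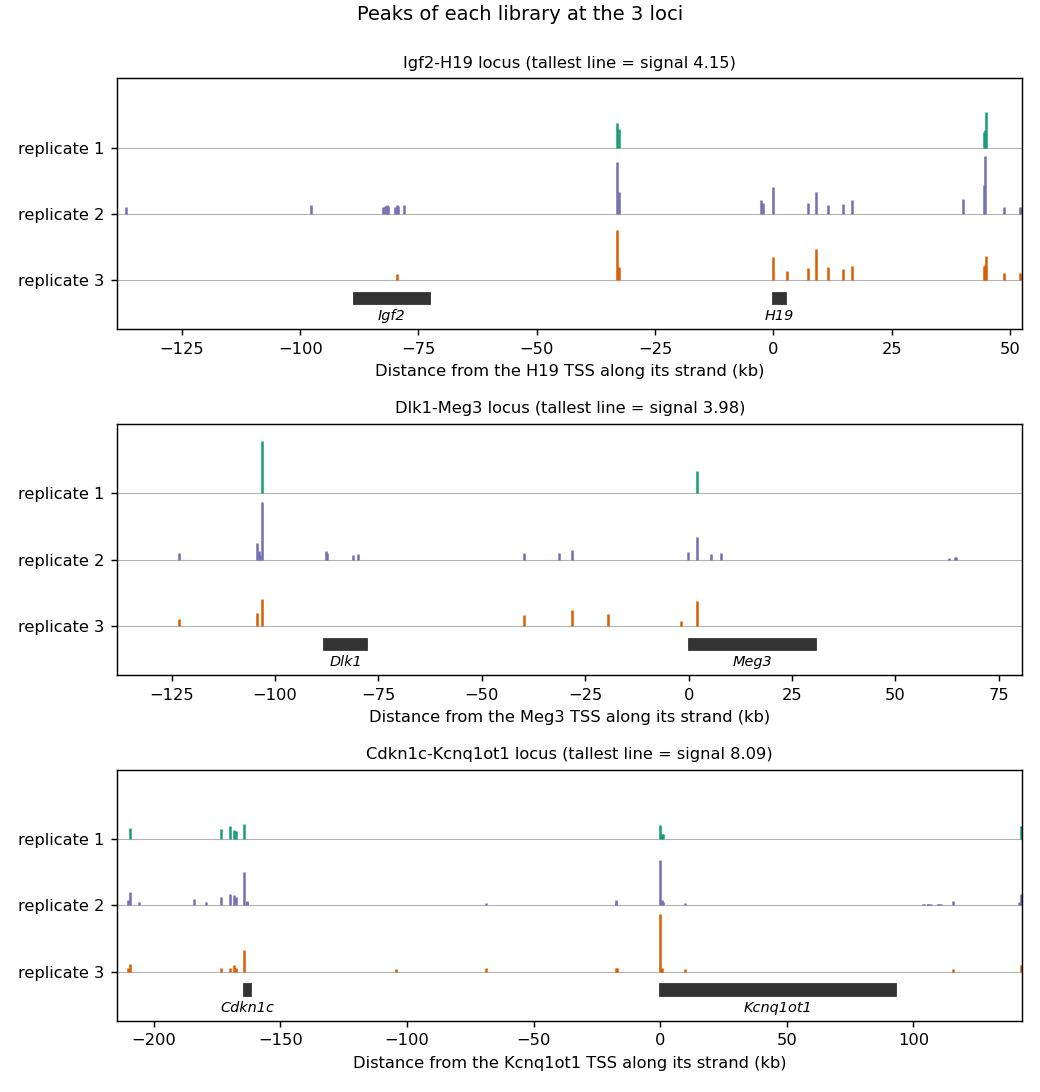
Peaks of each library (vertical lines, height in proportion to the deposited signal) at the Igf2-H19, Dlk1-Meg3 and Cdkn1c-Kcnq1ot1 loci, by distance in kb from the TSS of H19, Meg3 or Kcnq1ot1 along its strand, with the named genes as black boxes. Replicate 1 had 5, 2 and 10 peaks at these loci, against 26, 19 and 48 in replicate 2 and 15, 8 and 17 in replicate 3, and its peaks at Dlk1-Meg3 were the shared pair alone. Most of the 48 were weak, partly overlapping peaks in a run beyond the end of Kcnq1ot1 away from its TSS.

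The Dlk1-Meg3 locus holds the paternally expressed gene Dlk1, which encodes a membrane protein that is abundant on hepatoblasts, and the maternally expressed non-coding RNA gene Meg3. Imprinting there is known to be set by the intergenic control region named IG-DMR, upstream of Meg3. The locus ran over 218.904 kb (chr12:109402823-109621726) with 2, 19 and 8 peaks in replicates 1, 2 and 3, and 2 of its 20 regions were found in every library. These were the lowest peak counts of the 3 loci in replicates 1, 2 and 3.

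Dlk1 (chr12:109452823-109463336, plus strand) had a promoter peak in replicate 2 alone, with a signal of 0.618. Its percentiles were 0, 45.1 and 0, a mean of 15.0 ± 26.1 (SD, n = 3), the lowest mean of the 10 genes. Yet a region 14968 bp upstream of its TSS, at chr12:109437721-109438040, had signals of 3.64, 3.98 and 1.83 in replicates 1, 2 and 3. Within replicate 1 that peak ranked above 85.9% of all peaks, and within replicates 2 and 3 above 91.5% and 75.5%. It held the Dlk1 stretch printed above.

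Meg3 (chr12:109541001-109571726, plus strand) likewise had a promoter peak in replicate 2 alone, with a signal of 0.566, and stood at percentiles 0, 79.3 and 0 of long non-coding genes (mean 26.4 ± 45.8, SD, n = 3). The small RNA genes Gm27596 and Mir1906-1 start within 1000 bp of its TSSs. A region in its first intron, 2046 bp downstream of the TSS at chr12:109542941-109543160, had signals of 1.52, 1.59 and 1.71, which ranked above 61.5%, 83.9% and 74.3% of all peaks in replicates 1, 2 and 3. With a promoter window of 2500 bp this region counted as a Meg3 promoter peak in every library. The Meg3 promoter region that is methylated on the paternal copy had 0, 1 and 0 peaks.

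The IG-DMR, taken as 11 to 16 kb upstream of Meg3, had no peak, no footprint and no position under the false discovery rate limit in any library. It was the only control region without a peak in any library, apart from the windows of alternative TSSs of Grb10 and Mest. No peak in the lists is not the same as closed chromatin.

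The Cdkn1c-Kcnq1ot1 locus joins the maternally expressed gene of a cyclin-dependent kinase inhibitor, Cdkn1c, with the paternally expressed antisense RNA Kcnq1ot1, whose promoter lies in the control region KvDMR1 within an intron of Kcnq1. The locus ran over 357.593 kb (chr7:143153458-143511050) and held 10, 48 and 17 peaks in replicates 1, 2 and 3. Most of the 48 peaks of replicate 2 lay in a run 99309 to 111168 bp downstream of the Kcnq1ot1 TSS. Their signals were weak, from 0.0834 to 0.236, and several of these peaks overlapped each other. Of the 38 regions of the locus 9 were found in every library. That gave 2.52 regions per 100 kb, against 1.57 at Igf2-H19 and 0.914 at Dlk1-Meg3.

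Kcnq1ot1 (chr7:143203458-143296549, minus strand) reached promoter signals of 1.95 in replicate 1, 6.36 in replicate 2 and 8.09 in replicate 3, the highest percentile of the 10 genes in each library. Those signals corresponded to percentiles 89.8, 92.1 and 95.5 of long non-coding genes, a mean of 92.5 ± 2.86 (SD, n = 3). Ranked with coding and non-coding genes together, its mean percentile was 78.6, below the 79.3 of Peg3. Of the 2001 bp of KvDMR1, 845, 1519 and 1118 bp were listed under the false discovery rate limit. The long non-coding genes with the most similar percentiles over the 3 libraries were Gm27255, B130055M24Rik and 1700015C15Rik, which differed from Kcnq1ot1 by at most 0.483, 0.966 and 1.03 percentile points.

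The shared region over the Kcnq1ot1 TSS (chr7:143296461-143296820) held CCAAT, the letters known for the factor NF-Y and chosen here after the sequence had been seen, 3 times on the strand of the gene. One of the 3 lay in a footprint of every library and the others in footprints of replicates 2 and 3. CCAAT occurred at least once in the central 200 bp of 32% of the 25 regions found in every library near the 10 genes, against 25.1% of all such regions. The region is printed with the CCAAT letters in capitals.
Kcnq1ot1 promoter, chr7:143296501-143296780, minus strand: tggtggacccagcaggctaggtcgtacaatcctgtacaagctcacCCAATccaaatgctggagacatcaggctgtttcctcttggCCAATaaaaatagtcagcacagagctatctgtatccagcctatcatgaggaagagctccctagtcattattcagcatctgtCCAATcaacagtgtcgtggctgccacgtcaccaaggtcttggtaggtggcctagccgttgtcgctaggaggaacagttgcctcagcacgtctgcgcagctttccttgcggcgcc

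Cdkn1c (chr7:143458339-143461050, minus strand) had promoter signals of 2.10, 4.69 and 3.08, at percentiles 64.9, 65.0 and 66.6 of protein-coding genes (mean 65.5 ± 0.942, SD, n = 3). This was the smallest spread of the 10 genes. Its window held 6 regions found in every library, the most of the 10 windows, and 5 of them lay upstream of the gene. Those 3021 and 5451 bp from the TSS had signals of 1.18, 1.25 and 0.588 and of 1.91, 1.60 and 0.602, and held the Cdkn1c stretches printed above. The region at chr7:143505961-143506140, 3510 bp from the TSS of the imprinted placental growth gene Phlda2, had 1.55, 1.88 and 1.05. The Cdkn1c promoter and that last region had the best lowest ranks of the Cdkn1c window. Apart from its promoter, the region with the best lowest rank in the Kcnq1ot1 window, at chr7:143153941-143154140 in another intron of Kcnq1, had signals of 1.86, 1.62 and 0.907.

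Igf2r (chr17:12682406-12769664, minus strand), the maternally expressed receptor that carries IGF2 to lysosomes, reached promoter signals of 1.35 in replicate 1, 3.73 in replicate 2 and 2.33 in replicate 3. It stood at percentiles 57.4, 62.1 and 63.1 (mean 60.9 ± 3.02, SD, n = 3). The promoter was the only region of its window found in every library, and the small RNA gene Gm23833 starts within 1000 bp of its TSS. The promoter of Airn, the antisense RNA within Igf2r that silences it on the paternal copy, had 0, 2 and 2 peaks. At chr17:12741221-12741500 their signals were 1.23 and 0.713 in replicates 2 and 3, and at chr17:12740421-12740692 they were 0.625 and 0.865. The part of the Igf2r promoter region upstream of the TSS is shown, with bases in footprints of every library in capitals.
Igf2r promoter, chr17:12769673-12769912, minus strand: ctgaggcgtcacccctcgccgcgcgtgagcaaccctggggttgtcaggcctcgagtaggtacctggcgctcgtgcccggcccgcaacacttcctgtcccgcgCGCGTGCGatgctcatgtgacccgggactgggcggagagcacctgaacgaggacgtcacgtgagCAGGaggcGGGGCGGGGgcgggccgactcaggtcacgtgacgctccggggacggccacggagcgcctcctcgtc

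Grb10 (chr11:11930508-12038683, minus strand) encodes an adaptor protein that binds the insulin and IGF receptors and limits growth. Its promoter signals were 0.761, 1.48 and 0.498, at percentiles 50.9, 53.4 and 48.8 (mean 51.0 ± 2.31, SD, n = 3). The peaks lay at the most upstream TSS in all 3 libraries, and the other 2 TSSs had no peak within 1000 bp. Its main promoter held 222 CpG sites in 2001 bp, more than 99.6% of protein-coding genes did. Among its regions found in every library, the best lowest ranks were those of 2 regions in introns: chr11:12025781-12026160, with signals of 1.19, 1.16 and 0.623, and chr11:11973481-11973680, with 0.985, 1.74 and 1.02. The region at chr11:11973481-11973680 held the Grb10 stretch printed above.

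Mest (chr6:30723547-30748465, plus strand), a paternally expressed gene whose product resembles hydrolase enzymes, had promoter signals of 0.862, 0.681 and 0.408 and percentiles of 52.0, 46.3 and 47.0 (mean 48.4 ± 3.15, SD, n = 3). The peaks stood by its downstream TSSs, and the most upstream TSS, next to the small RNA gene Gm27522, had none. The peak of replicate 1 lay 852 bp from the TSS, so with a window of 500 bp Mest had a promoter peak in replicates 2 and 3 alone. Within its window the Cep41 promoter, at chr6:30693681-30693940, was stronger, with signals of 4.46, 10.9 and 5.66. The protein-coding genes with the most similar percentiles were AA467197, Prkg1 and Nfkb1, which differed from Mest by at most 0.298, 0.733 and 0.783 percentile points over the 3 libraries.

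Peg3 (chr7:6703892-6730431, minus strand) encodes a paternally expressed zinc-finger protein, and its control region covers the promoter that it shares with Usp29 on the other strand. The promoter signals were 2.33, 7.47 and 6.47 in replicates 1, 2 and 3, at percentiles 66.9, 73.4 and 79.0 (mean 73.1 ± 6.07, SD, n = 3), the highest of the 7 protein-coding genes in each library. The values of Usp29 are the same, because both TSSs share the peak, and the small RNA gene Gm27675 starts there too. The strongest peak did not cover the TSS but lay in the first intron, 820 bp from the TSS, at chr7:6729441-6729760. The region at chr7:6728341-6729000, 1750 bp from the TSS, had 1.62, 5.79 and 4.44. The promoter of the neighbouring imprinted gene Zim1 had 0.896, 1.54 and 0.803.

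From chr7:6727381 to chr7:6730620 the Peg3 window held 4 regions found in every library over 3240 bp, and this stretch held the YY1 letters GCCATNTT 11 times, each time on the minus strand, which is that of Peg3. YY1 is a zinc-finger factor, and a cluster of its sites in the Peg3 control region is known from mouse. Footprints overlapped 4, 8 and 4 of the 11 matches in replicates 1, 2 and 3, 3 matches lay in a footprint of every library and 3 in none. Windows of the same length centred on all 25817 regions found in every library had a median of 0 matches on the richer strand, and 98.9% had 2 or fewer. Just 16 windows reached 11 or more: 14 at the start of chromosome 9, with 24 to 38 matches each, 1 on chromosome 4, with 14, and 1 at Peg3, with 12. The matches are shown with 10 bases on either side, the YY1 letters in capitals, from the one nearest the TSS onwards.
Peg3 site 1, chr7:6729579-6729606, minus strand: cccagttggcGCCATCTTggagggtgga
Peg3 site 2, chr7:6729473-6729500, minus strand: cccgcttggcGCCATCTTgaaatgaccg
Peg3 site 3, chr7:6728870-6728897, minus strand: ccatcctggcGCCATCTTtcctggccaa
Peg3 site 4, chr7:6728729-6728756, minus strand: ctaccctgacGCCATCTTtgctggctga
Peg3 site 5, chr7:6728441-6728468, minus strand: ccaatttggcGCCATCTTtgccagcaat
Peg3 site 6, chr7:6728392-6728419, minus strand: tggtgcagacGCCATCTTgaatgacagg
Peg3 site 7, chr7:6728253-6728280, minus strand: cactgaaggtGCCATTTTgattgacagc
Peg3 site 8, chr7:6727954-6727981, minus strand: cccacctgacGCCATCTTtgctgacgtt
Peg3 site 9, chr7:6727924-6727951, minus strand: tggtgcagtaGCCATCTTgaatgacagc
Peg3 site 10, chr7:6727835-6727862, minus strand: ccacctgggcGCCATCTTtacttgtcat
Peg3 site 11, chr7:6727413-6727440, minus strand: tccctctggcGCCATCTTtgttggccac
Sites 1, 2 and 5 lay in a footprint of every library, and sites 6, 7 and 9 in none. Site 7 reads GCCATTTT, and the other 10 sites read GCCATCTT.

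**Figure D4:**
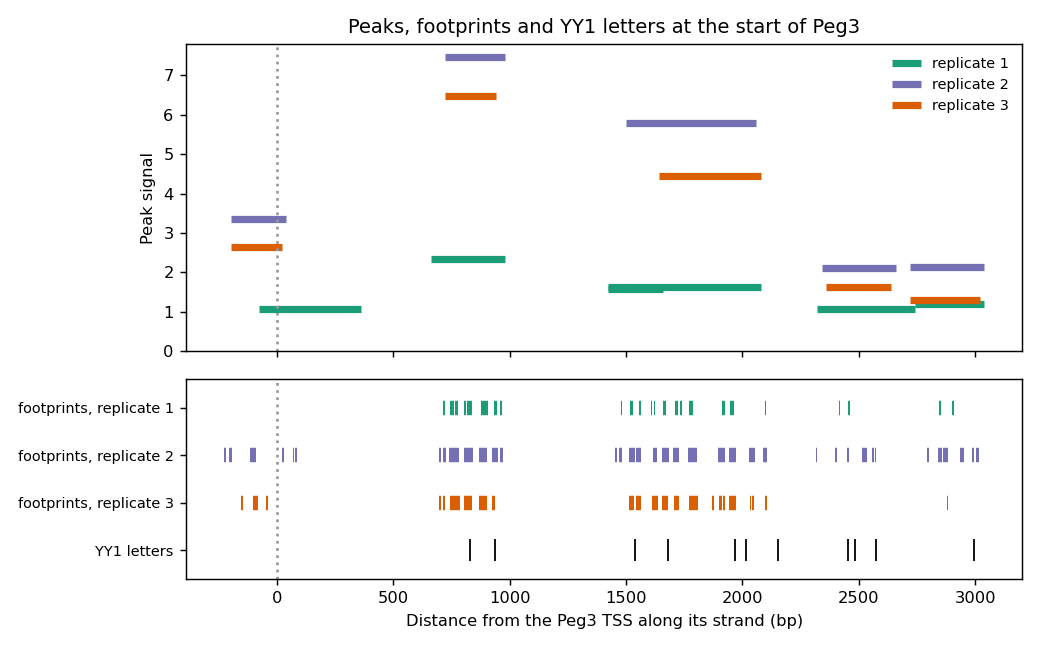
Peaks (upper panel, bars at their deposited signal), footprints (lower panel, rows by library) and YY1 letters (black ticks) by distance in bp from the Peg3 TSS (dotted line) along its strand. The highest peak of each library, at 2.33, 7.47 and 6.47, lay over the first ticks inside the gene and not over the TSS.

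Across the windows of all 10 genes, which merged into 8 windows of 1352.89 kb, 143 regions were found, 25 of them in every library and 11 of those at a promoter of any gene. That was 1.85 regions per 100 kb, against 0.947 over the genome. Windows around genes are denser than the genome in general: the median window was at 1.97 per 100 kb for protein-coding genes and 0.942 for long non-coding genes. Cdkn1c, at 5.84, Peg3, at 3.95, and H19, at 2.92, stood above the median of their class, as did Kcnq1ot1, at 1.55. Igf2r was lowest of the 10, at 0.534, and the other genes lay between 0.765 and 1.72. Another 68 regions were found in replicate 2 alone, 9 in replicate 3 alone and 1 in replicate 1 alone. The letters of the erythroid GATA factors (AGATAA) occurred anywhere in 8% of the 25 regions found in every library, against 10.2% of all such regions, and in the central 200 bp of 0% of them, against 7.74%.

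Footprints in the 8 windows numbered 90, 418 and 195 in replicates 1, 2 and 3, and 47 merged footprints were found in every library. The Peg3 window held 14 of them among its 73 merged footprints, Cdkn1c 8 of 39, H19 6 of 81, Kcnq1ot1 5 of 70 and Grb10 4 of 85. The windows of the other genes held 2 or 3 each. These counts are not scaled to the length of the windows, which ran from 102615 to 208176 bp. In the central 200 bp of the 25 shared regions, YY1 letters occurred in 8%, against 5.07% of all such regions. The letters of the liver factors FOXA (TGTTTAC), HNF4A (CAAAGTCCA) and CEBP (TTGCGCAA) occurred in 4%, 0% and 0% of them, against 1.67%, 0.167% and 0.186%.

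Marker lists of the cell types of the liver differed between the libraries too. All their genes were protein-coding, and 54%, 67.3% and 56.4% of all protein-coding genes had a promoter peak in replicates 1, 2 and 3. In replicates 1, 2 and 3, promoter peaks were listed for 4, 14 and 11 of 15 hepatoblast markers, with summed promoter signals of 7.55, 23.9 and 16.03 in the units of each library. Foxa3, which had a peak in every library, gave 4.23, 13.6 and 8.09 of those sums. Afp, Hnf4a, Foxa1, Apoa1 and Ttr were at 0 in replicate 1 and had peaks in replicates 2 and 3, and Alb had no promoter peak in any library. All 12 erythroid markers had a promoter peak in every library, with summed signals of 25.5, 98.5 and 94.9. Peaks were found for 3, 9 and 4 of 10 mesenchymal and stellate markers (summed signals 4.28, 7.69 and 3.28), 3, 6 and 4 of 10 endothelial markers (3.34, 6.37 and 3.36) and 1, 5 and 4 of 8 macrophage markers (0.739, 4.83 and 3.61). Counts of hepatoblast, mesenchymal and stellate, endothelial and macrophage markers, like those of the 10 genes, were lowest in replicate 1 and highest in replicate 2, whereas Dlk1 and Meg3 lacked a promoter peak in replicate 3 as well. With equal numbers of peaks per library the hepatoblast counts were 4, 5 and 9 and the macrophage counts 1, 3 and 3. Mesenchymal and stellate counts were then 3, 3 and 3, and endothelial counts 3, 2 and 1. Neither of the last lists named was thus lowest in replicate 1. Of all protein-coding genes 54%, 52.5% and 49.3% then had a promoter peak. At that setting H19 still had a promoter peak in replicates 2 and 3 but not in replicate 1. Igf2, Dlk1 and Meg3 had none in any library. The part of cell makeup and of list length in the absence of Igf2, H19, Dlk1 and Meg3 peaks from replicate 1 was not tested. In bulk tissue, fewer cells of a type and less open chromatin per cell cannot be told apart.

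**Figure D5:**
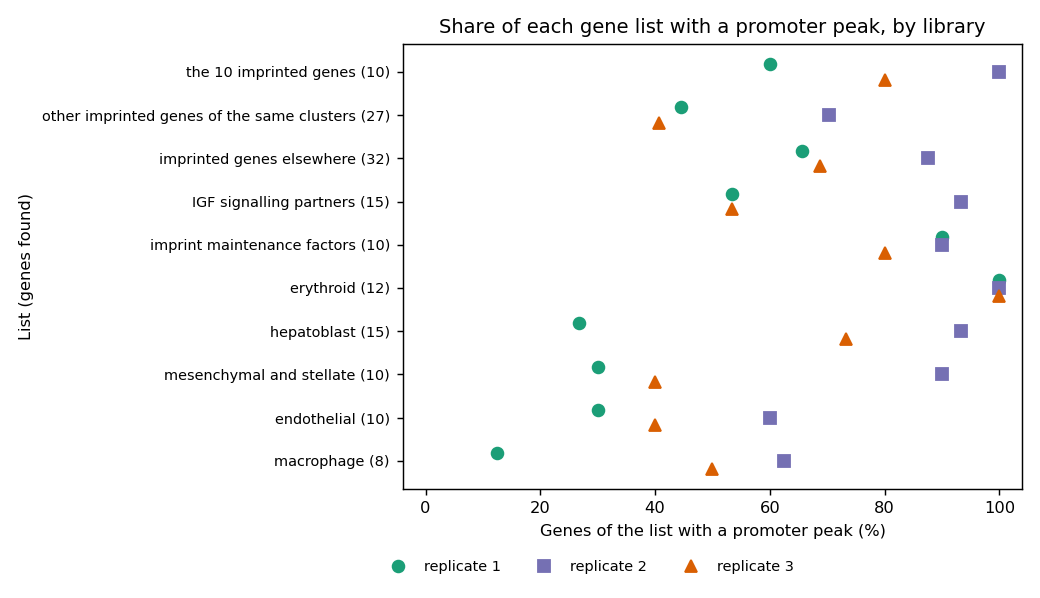
Percentage of the genes of each list with a promoter peak in each library, with the number of genes found in brackets. The 10 imprinted genes stood at 60, 100 and 80% in replicates 1, 2 and 3, erythroid markers at 100% in each, and hepatoblast markers at 26.7, 93.3 and 73.3%. All protein-coding genes, not drawn, stood at 54, 67.3 and 56.4%, and all long non-coding genes at 18.6, 31.1 and 22.8%.

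The other imprinted genes of the same clusters had promoter peaks in 12, 19 and 11 of 27 cases in replicates 1, 2 and 3, 9 of them in every library. That was 44.4%, 70.4% and 40.7% of a list of 23 protein-coding and 4 long non-coding genes. Over all genes it was 54%, 67.3% and 56.4% of protein-coding and 18.6%, 31.1% and 22.8% of long non-coding ones. In every library it was 51.4% and 17.1% of all genes of the 2 classes. Nap1l4, a nucleosome assembly gene, was the highest of these cluster genes, with a mean percentile of 96.7 ± 0.690 (SD, n = 3), followed by Copg2 at 86.6 ± 4.26. Ins2, Th, Rtl1, Mirg, Slc22a2, Ddc and Cpa4 had no promoter peak in any library. Of 32 imprinted genes elsewhere, 30 of them protein-coding, 21, 28 and 22 had a promoter peak. That was 65.6%, 87.5% and 68.8%, against 54%, 67.3% and 56.4% of all protein-coding genes. Inpp5f (95.9 ± 2.23) and Nespas (93.2 ± 0.383) ranked highest, and Ndn, Rasgrf1, Slc38a4 and Gpr1 had none in any library.

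In replicates 1, 2 and 3, promoter peaks were listed for 8, 14 and 8 of 15 genes for partners of IGF signalling, all protein-coding. That was 53.3%, 93.3% and 53.3%, against 54%, 67.3% and 56.4% of all protein-coding genes, so replicates 1 and 3 were near the general share. The receptor genes Igf1r and Insr had one in every library, at mean percentiles of 76.0 ± 5.76 and 71.6 ± 1.45 (SD, n = 3), above Igf2r at 60.9 ± 3.02. Irs2, a docking protein of both receptors, ranked highest (88.5 ± 0.418), followed by Igf2bp3, which encodes an RNA-binding protein (76.3 ± 1.75). The binding protein gene Igfbp2 had a peak in replicate 2 alone (12.1 ± 20.9), and Igfbp6 had none. Of 10 genes for factors that maintain imprints, all protein-coding, 9, 9 and 8 had a promoter peak. That was 90%, 90% and 80%, against 54%, 67.3% and 56.4% of all protein-coding genes. Yy1 (95.9 ± 1.18) and Uhrf1 (91.8 ± 1.81), which guides maintenance methylation, ranked highest. Zfp57 (28.7 ± 25.2) and the germline factor gene Dppa3, without a peak in any library, ranked lowest. Igf1r and Insr were named after their values had been seen.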

How the data were processed

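DNase-seq of embryonic mouse liver was analysed in 1 group of 3 libraries, and no test was run, because there is no second group. Per the text listings deposited with each library, the authors derived peaks and footprints per library from its filtered alignments, in mm10, with a caller not given in the sources used here. Signal in the deposited peak lists (column 7) has no stated scale and was used within a library only. The deposited FDR lists hold adjusted p-values (q-values), all under 0.05, and the deposited footprints carry the constant 0.01 and so no score. Depth is unknown.

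Of the 2 peak lists per library the longer was used. Peaks were merged across libraries where they overlapped or touched, with Python 3.11.15 and numpy 2.4.6. Genes and TSSs came from GENCODE M21 basic, with entries of the same symbol, class and chromosome combined, and of the lists only Zfp264 was not found there. Overlap meant at least 1 bp, and windows took in the gene and 50 kb on either side. Motifs were searched on both strands with overlaps allowed. The interval functions were tested on simulated data.

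Genes and lists were chosen with earlier results of these data known. Named are all 10 genes and genes with a TSS within 1000 bp of theirs. Of each list other than the cell type markers, the 2 highest and 2 lowest by mean percentile are named, with all ties at 0. Of each window, the 2 regions found in every library with the best lowest rank of signal are named. So are the 3 genes most like the highest and the lowest gene with a peak in every library. Any other gene or region named was chosen after its values were seen. Alternatives were the shorter peak list, equal numbers of peaks, other promoter windows, flanks and overlaps, the most upstream TSS, a joint ranking and leaving out each library.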

Additional observations from a re-analysis of the deposited data

How the results depend on the processing

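Of 60 recomputed counts 50 stayed within 1.5 times the reported value. With the shorter peak list 5 genes had a promoter peak in replicate 3. With equal numbers of strongest peaks 6 and 5 had one in replicates 2 and 3, and the Cdkn1c-Kcnq1ot1 locus had 5 regions found in every library. Genes with a promoter peak in every library numbered 4 with the shorter list or equal numbers of peaks, 5 with a window of 500 bp or the most upstream TSS alone, 7 with a window of 2500 bp and 8 without replicate 1.

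Leaving out 1 library moved the regions found in every remaining library to between 25 and 67 over all windows, between 3 and 13 at Igf2-H19, between 2 and 6 at Dlk1-Meg3 and between 9 and 14 at Cdkn1c-Kcnq1ot1, the highest of each without replicate 1. Shared footprints numbered 22 when 50% of each footprint had to overlap, and ranged from 47 to 103 with a library left out, highest without replicate 1. The cause was not tested.

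Of 60 recomputed mean percentiles 48 moved by less than 1 SD over the libraries. With 3 libraries, a mean with 1 of them left out cannot move by 1 SD, so that part of the count was fixed in advance. The SD was also wide for genes at 0 in a library. Dlk1, which went from 15.0 to 0 with equal numbers, is therefore among the 48. So is Meg3, which went from 26.4 to 0 with the shorter list and with equal numbers. With the shorter list and with equal numbers Igf2 stood at 0 and 0, Grb10 at 17.8 and 34.8, and Mest at 15.5 and 17.3. Either set of CTCF letters occurred in the central 200 bp of 9 of the 25 shared regions (36%), against 20.3% of all such regions. GGNGGCAG alone occurred in 5 of the 25. GGGGGCGC was chosen after the sequences had been seen. No paired analysis was possible because the samples form 1 group. Depth is unknown, and its part in absent peaks was not tested. A promoter without a listed peak may still be open, and no region can be counted as found in every library without a peak in replicate 1, which had the fewest.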
